A study of Homo sapiens with 40 samples.

Results

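Expression of 9 genes for secreted proteins of the extracellular matrix was described across 24 RNA-seq libraries of human mammary cell lines: FN1, TNC, SPARC, THBS1, THBS2, POSTN, TGFBI, MGP and SPP1. The 9 genes were listed by symbol, and all 9 were found among the 60708 genes of the count tables. They were chosen from results of these same 24 libraries, so their levels and differences are a description. No p-value is given for them, and a call only means that an adjusted p (quasi-likelihood test of edgeR, with the Benjamini-Hochberg method across every gene tested) lay under 0.05.

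Matricellular proteins are secreted into the matrix but act mainly as signals between matrix and cell, by binding integrins, growth factors, proteases and structural fibers, rather than as load-bearing material. Many of them are known for low levels in resting adult tissue and high levels in wounds, fibrosis and the stroma of breast tumors, and TGFβ, acting through SMAD proteins, is a textbook inducer of several. FN1 encodes fibronectin, a structural glycoprotein that integrins assemble into fibrils, and MGP encodes matrix Gla protein, a small vitamin K-dependent protein that binds calcium and BMP ligands and inhibits calcification.

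MI-spheres were 3D cultures of MCF-10A, an immortalized breast epithelial line, in ultra-low attachment plates. MII-spheres were the same kind of culture of the HRAS-transformed MCF-10A-HRAS line (MCF-10AneoT), so HRAS expression is shared by both MII groups. Each line was left untreated (MI Ctrl and MII Ctrl) or received TGF-beta1 at 2.5 ng/ml for 16 h (MI TGFβ and MII TGFβ). The other 4 groups were MDA-MB-231, a triple-negative breast cancer line, grown as monolayers in medium with serum and without added TGFβ. WT cells were untreated, and SLUG KO cells had been cut by CRISPR/Cas9 with 1 guide in exon 1 of SNAI2, the gene for SLUG, and expanded from single cells. The sources used here do not say whether the 3 SLUG KO libraries came from 1 clone. Csi cells received scramble siRNA and siSMAD cells received siRNAs against SMAD2, SMAD3 and SMAD4. Each group had 3 libraries, and nothing in the labels says that these were separate cultures, so the errors measure the spread between libraries, which may be technical.

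Between 14124688 and 38406952 fragments per library were counted on genes. Log2 CPM (counts scaled to library size with TMM factors, the edgeR unit CPM) of libraries of a group correlated with Pearson's r of at least 0.985 across genes, except that WT replicate 2 correlated with the other WT libraries at only 0.956 and 0.952. Most folds, ratios and counts of calls between SLUG KO and WT cells, and the WT levels that move most, are therefore given with and without it. The ratio of SPP1, the counts of SPOCK3, marker sums and likeness between genes are given only with it. Spheres carried epithelial markers (8 or 9 of 9 at 1 CPM or more, with CDH1 between 521 and 726 CPM), and VIM was at most 10.7 CPM there. In MDA-MB-231 libraries VIM lay between 567 and 1044 CPM, and KRT5 had no count in WT and SLUG KO cells. HRAS was at 220 CPM in MII Ctrl against 40.7 in MI Ctrl. SMAD2, SMAD3 and SMAD4 fell in siSMAD cells, by 1.92, 0.69 and 1.72 on the log2 scale (adjusted p = 2.65e-22, 9.70e-15 and 1.50e-19, quasi-likelihood test of edgeR, Benjamini-Hochberg method). SNAI2 RNA was higher in SLUG KO (61.8 CPM) than in WT cells (28.2 CPM). A small deletion or insertion in exon 1 need not lower the RNA, so this level does not check the knockout. The labels put the siRNA libraries in another batch (HLNGWDSX7) than the other 18 libraries (UB-2871).

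FN1 (ENSG00000115414.21) lies on the minus strand of chromosome 2 from 215360440 to 215436073 of GRCh38, the build of the count tables. TNC (ENSG00000041982.16; minus strand of chromosome 9, 115019575 to 115118257) encodes tenascin-C, a large hexameric glycoprotein that interferes with cell adhesion to fibronectin. THBS1 (ENSG00000137801.11; plus strand of chromosome 15, 39581079 to 39599466) and THBS2 (ENSG00000186340.17; minus strand of chromosome 6, 169215780 to 169254050) encode thrombospondins, which bind CD36 and CD47, and THBS1 protein can activate latent TGFβ. TGFBI (ENSG00000120708.17; plus strand of chromosome 5, 136028988 to 136063818) and POSTN (ENSG00000133110.15; minus strand of chromosome 13, 37562583 to 37598844) encode the fasciclin-domain proteins TGFBI and periostin, both integrin ligands. SPARC (ENSG00000113140.11; minus strand of chromosome 5, 151661096 to 151686975) encodes osteonectin, a collagen-binding counter-adhesive protein. SPP1 (ENSG00000118785.15; plus strand of chromosome 4, 87975667 to 87983532) encodes osteopontin, a phosphorylated ligand of integrins and CD44. MGP (ENSG00000111341.10) lies on the minus strand of chromosome 12 from 14880864 to 14885857.

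Strand was ignored in counting, and fragments that touched exons of several genes were not assigned. THBS2 shares 2249 bases of exon, 31.2% of its exon length, with THBS2-AS1 on the opposite strand, and its counts are therefore uncertain. TNC, SPARC, MGP and SPP1 each shared 1.34% to 4.12% of their exon bases with 1 gene on the opposite strand, and THBS1 shared 4.49% with THBS1-AS1 and 4.89% with FSIP1. No other gene's exons overlapped those of FN1, POSTN and TGFBI.

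Promoter sequence is shown for the 4 members with the highest levels that were called higher with TGFβ in MI-spheres and for POSTN, which had counts almost only there. The bases are those before the gene's first base in RefSeq (GRCh38.p14), which held a promoter for 8 of the 9 members (all but MGP), without bases that lie inside the gene in GENCODE. Capitals mark matches on either strand to the SMAD-binding letters CAGAC (or its reverse complement) and to the AP-1 letters TGANTCA. The motifs do not overlap each other here.

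FN1 (chr2:215436074-215436318, minus strand): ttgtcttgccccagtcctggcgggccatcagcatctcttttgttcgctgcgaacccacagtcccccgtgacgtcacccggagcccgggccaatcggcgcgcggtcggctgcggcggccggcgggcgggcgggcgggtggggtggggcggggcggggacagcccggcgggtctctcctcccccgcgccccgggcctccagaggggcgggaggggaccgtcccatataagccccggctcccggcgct
TNC (chr9:115118258-115118407, minus strand): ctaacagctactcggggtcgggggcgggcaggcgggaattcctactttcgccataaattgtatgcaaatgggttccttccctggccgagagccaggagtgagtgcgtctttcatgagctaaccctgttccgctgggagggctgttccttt
THBS1 (chr15:39580829-39581078, plus strand): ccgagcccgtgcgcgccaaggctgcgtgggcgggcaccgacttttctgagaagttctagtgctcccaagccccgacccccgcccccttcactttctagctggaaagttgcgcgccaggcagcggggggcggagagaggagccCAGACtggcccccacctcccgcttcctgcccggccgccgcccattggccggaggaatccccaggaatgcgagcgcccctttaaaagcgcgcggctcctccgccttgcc
TGFBI (chr5:136028738-136028987, plus strand): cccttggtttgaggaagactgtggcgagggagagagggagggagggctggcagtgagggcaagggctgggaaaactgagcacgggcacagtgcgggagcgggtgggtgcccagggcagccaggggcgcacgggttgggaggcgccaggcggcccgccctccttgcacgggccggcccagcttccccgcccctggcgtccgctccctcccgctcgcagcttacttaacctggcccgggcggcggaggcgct
POSTN (chr13:37598845-37599018, minus strand): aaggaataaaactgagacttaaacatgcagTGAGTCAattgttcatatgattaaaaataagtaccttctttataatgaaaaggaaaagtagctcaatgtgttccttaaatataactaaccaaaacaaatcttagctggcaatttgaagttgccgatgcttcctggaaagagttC

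Over the full 250 bases before the RefSeq start, 5 of the 8 members held CAGAC or its reverse complement, and 38% of all 35116 promoters did. THBS2 had 3 such matches, and TNC, THBS1, POSTN and SPP1 had 1 each. Those of TNC and POSTN begin at positions -70 and -77, counted back from the RefSeq start, in or at the edge of the stretch that GENCODE counts as part of the gene, so that the former is not among the printed bases and only the first letter of the latter is printed, as the last capital of POSTN. The match of THBS1 begins at -108. The AP-1 letters were found in POSTN alone among the 8 members, beginning at -220, and in 6.57% of all promoters. FN1, SPARC and TGFBI held neither motif. These matches describe letters in the sequence and are not measured binding sites.

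Levels of different genes were compared per length, as TPM computed from the counts and the exon lengths in the tables. TGFBI was the most abundant member in MI-spheres, at 73.3 ± 5.41 TPM (SD, n = 3) without and 175 ± 7.22 with TGFβ. MGP led in MII-spheres with 2598 ± 23.96 TPM without and 2333 ± 98.9 with TGFβ, and its median rank among all genes was 19 and 17. THBS1 led in WT (975 ± 317 TPM, or 800.1 without WT replicate 2) and SLUG KO cells (652 ± 44.03), and FN1 in Csi (569 ± 25.8) and siSMAD cells (669 ± 43.7). TNC was between 3.39 TPM in MI Ctrl and 51.7 in WT cells. Without WT replicate 2 the WT mean of TNC was 38.6 TPM, under those of siSMAD (48.3) and Csi cells (44.3). SPARC, POSTN, THBS2 and SPP1 stayed at or under 3.56 TPM in all 8 groups.

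The order of the groups differed between the members on the CPM scale, which compares 1 gene across libraries. FN1 spanned from 55.3 CPM in MI Ctrl to 2892 CPM in siSMAD cells, and no neighbouring pair of groups overlapped. Its order from the top was siSMAD, Csi, WT, MI TGFβ, MII TGFβ, MII Ctrl, SLUG KO and MI Ctrl. For THBS1 also no neighbours overlapped, and the order ran from WT (2293 CPM), SLUG KO (1755), siSMAD (1243) and Csi (931) to MII TGFβ (666), MII Ctrl (366), MI TGFβ (74.2) and MI Ctrl (18.2). TGFBI had its highest level in MI TGFβ (876 CPM) and its lowest in SLUG KO cells (48.4), and only siSMAD and Csi overlapped in its order. TNC was highest in MII TGFβ (171 CPM) and lowest in MI Ctrl (18.3). WT overlapped both of its neighbours in the TNC order, MII TGFβ above and siSMAD below, through WT replicate 2 at 179 CPM. Parts of these orders between lines depend on the scale. In TPM, TNC was lower in MII TGFβ (36.8) than in WT (51.7, or 38.6 without WT replicate 2), siSMAD (48.3) and Csi cells (44.3). TGFBI was lower in MII TGFβ (91.4 TPM) than in siSMAD and Csi cells (both 146 TPM).

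Among the low members, SPARC was highest in Csi (4.08 CPM), with MI TGFβ (3.33) and siSMAD (3.29) next and overlapping each other. In TPM, SPARC was lower in MI TGFβ (1.10) than in siSMAD cells (2.82). WT, MII TGFβ, MI Ctrl and MII Ctrl overlapped with their neighbours at 0.203 to 0.581 CPM. THBS2 was at 5.61 CPM in Csi and 4.85 in siSMAD cells, which overlapped, and under 1 CPM in each of the other 18 libraries. SPP1 was highest in siSMAD (5.75 CPM), Csi (3.48), MII TGFβ (2.13) and MII Ctrl (1.16) cells, with none of these overlapping. The same line had different levels in WT and Csi cells, such as 773 and 2420 CPM for FN1 and 0.449 and 5.61 CPM for THBS2, and without WT replicate 2 the WT values were 672 and 0.239 CPM. Batch, siRNA transfection and culture differ between these groups and cannot be told apart, so the values are only set side by side.

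The first comparison asked what TGFβ changed in MI-spheres. All 7 members that passed the low-count filter were called higher, against 56.0% of the 16863 genes tested called in either direction, 28.7% higher and 27.4% lower. SPARC, POSTN and MGP were near the detection limit in MI Ctrl and passed the filter through their stimulated libraries, so a member could pass only by differing, and nothing is read from the count. The other members, THBS2 and SPP1, were not tested. With scaling to total counts alone the median of all genes moved from -0.0165 to -0.155, and 34.1% rather than 51.2% of called genes were higher.

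FN1 rose from 57.1, 52.1 and 56.8 CPM in MI Ctrl to 259, 280 and 247 CPM with TGFβ. The groups lay far apart, with a log2 fold-change of 2.16 ± 0.063 (SE). TNC had 16.8, 18.6 and 19.6 CPM without and 67.4, 70.0 and 65.1 CPM with TGFβ, and its log2 fold-change was 1.80 ± 0.074. THBS1 went from 17.7, 19.7 and 17.2 CPM to 77.1, 73.6 and 72.0 CPM (log2 fold-change 1.94 ± 0.071). In each of these 3 genes all stimulated libraries lay above all control libraries. TGFBI, already the most abundant member, rose from 317, 312 and 317 CPM to 880, 840 and 909 CPM (log2 fold-change 1.39 ± 0.049).

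POSTN had 5, 3 and 5 counts in the MI Ctrl libraries and 66, 100 and 97 counts with TGFβ. That is 0.199 ± 0.058 CPM against 4.07 ± 0.43 CPM (SD, n = 3), with a log2 fold-change of 4.25 ± 0.31. SPARC had 10, 3 and 7 counts without and 62, 71 and 80 counts with TGFβ, a log2 fold-change of 3.35 ± 0.31. MGP went from 2, 6 and 6 to 22, 30 and 29 counts (log2 fold-change 2.45 ± 0.44). These 3 genes had the largest log2 fold-changes of the 7 members tested and reached means of at most 4.07 CPM. THBS2 had 1, 4 and 1 counts without and 3, 22 and 8 counts with TGFβ, so its groups overlapped, and SPP1 had 9 counts in the 3 control and 3 counts in the 3 stimulated libraries (ratio 3.4, 95% exact counting interval 0.849 to 19.5).

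Markers of other cell types also moved in these libraries. The summed level of 7 fibroblast markers was 20.8 to 23.0 CPM in MI Ctrl and 38.6 to 41.1 in MI TGFβ, with 4 and 3 of 7 at 1 CPM or more. The summed level of 5 mesenchymal markers was 6.74 to 6.75 and 17.3 to 19.2 CPM. DCN, a defining fibroblast gene, was at 11.0 to 12.1 CPM without and 14.7 to 18.4 CPM with TGFβ, and no gene of either list was at 0 in all libraries of a group. Their part in the results was not tested. A change in the number of expressing cells and a change in RNA per cell cannot be told apart in libraries from whole spheres.

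In MII-spheres, 5 of the 6 members tested were called higher with TGFβ, where 57.6% of 16396 genes were called, 29.9% higher and 27.6% lower. TNC rose most, from 27.8, 34.0 and 27.5 CPM in MII Ctrl to 173, 170 and 171 CPM, a log2 fold-change of 2.47 ± 0.056 (SE). THBS1 rose from 360, 369 and 370 to 669, 668 and 660 CPM (log2 fold-change 0.82 ± 0.034). TGFBI rose from 186, 189 and 183 to 343, 338 and 341 CPM (log2 fold-change 0.84 ± 0.036). In these 3 genes every stimulated library lay above every control library.

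MGP was at 2649, 2525 and 2689 CPM in MII Ctrl and at 3326, 3268 and 3165 CPM with TGFβ. The groups did not overlap, and the log2 fold-change was 0.28 ± 0.032 in CPM, while on the per-length TPM scale the mean was lower with TGFβ (2333 against 2598). SPP1 had 22, 27 and 20 counts without and 27, 35 and 33 counts with TGFβ, a log2 fold-change of 0.90 ± 0.29, and it was not called without MII Ctrl replicate 2 (log2 fold-change 0.71).

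FN1 was the member tested in MII-spheres that was not called. Its libraries had 137.2, 132.8 and 131.2 CPM in MII Ctrl and 143, 156 and 140 CPM with TGFβ, which did not overlap, while its TPM was lower with TGFβ (17.6 ± 1.60 against 22.2 ± 0.67, SD, n = 3). Its log2 fold-change was 0.09 ± 0.043 (95% interval 0.01 to 0.18, not adjusted for the number of genes tested). It turned to -0.04 with scaling to total counts alone, which moved the median of all genes from -0.0179 to -0.15 and the higher share of called genes from 52% to 33.3%. FN1 was called with DESeq2, with no low-count filter, and when MII Ctrl replicate 1, MII TGFβ replicate 1 or MII TGFβ replicate 3 was left out (log2 fold-changes from 0.12 to 0.13). POSTN had 1 count in the 6 MII libraries together and THBS2 had 2, which allows no fold, and 3 counts over a group, the limit used here, equal 0.0511 CPM in MII Ctrl and 0.0645 in MII TGFβ. SPARC had 4, 7 and 2 counts without and 7, 3 and 11 counts with TGFβ, with overlapping CPM, and was not tested. The summed mesenchymal markers were at 9.99 to 12.1 CPM in MII Ctrl (3 of 5 at 1 CPM or more) and 22.2 to 24.2 CPM in MII TGFβ (4 of 5), and the fibroblast markers at 8.99 to 10.9 and 4.26 to 5.41 CPM (1 of 7 in both), with DCN at 2 counts in each group. Their part in the results was not tested.

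The difference between both responses was tested as the interaction of line and TGFβ in 1 fit of the 12 sphere libraries, where 22.4% of 18591 genes were called, 12.6% with a more positive response in MII- and 9.75% in MI-spheres. Of 8 members tested, 1 was called with a more positive and 5 with a less positive response in MII-spheres. SPARC, POSTN, MGP and SPP1 passed the filter through the groups in which they were high, so nothing is read from the count. TNC responded more in MII-spheres, by a log2 difference of 0.68 ± 0.099 (SE). FN1 had the opposite pattern, with a difference of -2.06 ± 0.078. THBS1, TGFBI and MGP also responded less in MII-spheres on the log2 scale, with differences of -1.11 ± 0.073, -0.55 ± 0.059 and -2.17 ± 0.32. The difference of MGP rests on an MI response from 14 to 81 counts, near the detection limit. In MII-spheres MGP went from 2621 to 3253 CPM. The difference of SPARC, -2.20 ± 0.72, rests on 13 to 21 counts per MII group and lost its call without MI Ctrl replicate 2, MII Ctrl replicate 1, MII Ctrl replicate 2 or MII TGFβ replicate 2 (log2 differences from -2.06 to -1.87). For POSTN, with no count in MII Ctrl, the difference could not be estimated (SE 5.63). SPP1 was not called (2.38 ± 1.02), but it was without MI Ctrl replicate 3 (2.84).

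**Figure D1:**
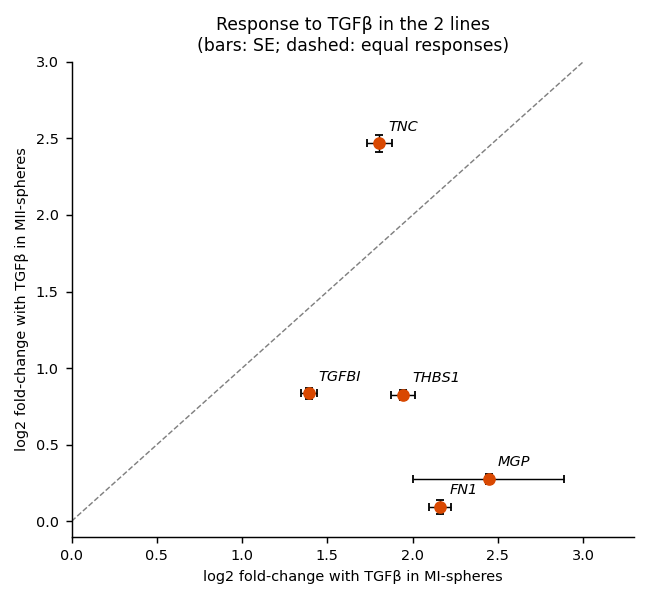
Log2 fold-changes with TGFβ (points, with SE bars) in MI-spheres on the x axis and MII-spheres on the y axis for the 5 members tested in both; the dashed line marks equal responses. TNC (1.80 and 2.47) lies above the line, and FN1 (2.16 and 0.09, the latter -0.04 with scaling to total counts alone), THBS1, TGFBI and MGP lie below it. The MI value of MGP rests on 14 counts without and 81 with TGFβ.

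Unstimulated MII-spheres were compared with unstimulated MI-spheres to see what differed between the lines. Of 6 members tested, 5 were called higher and 1 lower in MII-spheres, where 64.2% of 17862 genes were called, 31.7% higher and 32.5% lower. MGP and SPP1 were near the detection limit in MI Ctrl and passed the filter through MII Ctrl, so nothing is read from the count. MGP had the largest difference, with 40046, 75538 and 48470 counts in MII Ctrl against 2, 6 and 6 in MI Ctrl. The log2 fold-change was 13.56 ± 0.085 (SE), a level 11610 times higher in mean CPM. THBS1 followed with 360, 369 and 370 CPM in MII Ctrl against 17.7, 19.7 and 17.2 in MI Ctrl (log2 fold-change 4.34 ± 0.049).

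FN1 was at 137.2, 132.8 and 131.2 CPM in MII Ctrl and 57.1, 52.1 and 56.8 in MI Ctrl, a log2 fold-change of 1.28 ± 0.046. TNC was higher by 0.74 ± 0.077 on the log2 scale and SPP1 by 3.01 ± 0.51, with 69 counts against 9, of which 7 came from MI Ctrl replicate 1 (log2 fold-change 4.34 without it). TGFBI was lower in MII Ctrl, at 186, 189 and 183 CPM against 317, 312 and 317 (log2 fold-change -0.75 ± 0.036). On the TPM scale TGFBI was at 69.1 ± 2.81 in MII Ctrl and 73.3 ± 5.41 in MI Ctrl (SD, n = 3), so the size of this difference depends on the scale. POSTN had no count in MII Ctrl and 13 in MI Ctrl, at least 3.86-fold lower against the limit of 3 counts over the group. Scaling to total counts alone moved the median of all genes from 0.0169 to 0.109 here, and the higher share of called genes from 49.4% to 58.4%.

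With TGFβ, 4 of 8 members tested were called higher and 4 lower in MII- than in MI-spheres, where 62.7% of 15878 genes were called, 31.1% higher and 31.6% lower. This comparison shares its libraries with those above. POSTN and SPARC passed the low-count filter through MI TGFβ and SPP1 through MII TGFβ, so nothing is read from the count. MGP (log2 fold-change 11.40 ± 0.083), THBS1 (3.24 ± 0.053) and TNC (1.42 ± 0.056) were higher in MII TGFβ. SPP1 was higher as well, with 95 counts against 3 (ratio 50.9, 95% exact counting interval 16.9 to 251). FN1, higher in MII-spheres without TGFβ, was lower with it, at 143, 156 and 140 CPM against 259, 280 and 247 (log2 fold-change -0.77 ± 0.062). TGFBI (log2 fold-change -1.29 ± 0.045) and SPARC (-2.72 ± 0.33) were lower too. POSTN had 1 count in the 3 MII TGFβ libraries against 263 in MI TGFβ, a ratio of 164 with a 95% exact counting interval of 29.1 to 6490. THBS2 had 1 count against 33 (ratio 20.5, interval 3.44 to 836). These intervals cover counting error only.

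Markers of other cell types differed between the lines too. The summed level of 4 endothelial markers was 31.4 to 34.5 CPM in MI Ctrl and 114 to 117 in MII Ctrl, of which PECAM1 took 102.7 to 106.03 CPM in MII Ctrl. The immune markers PTPRC, CD68, LST1, TYROBP and CSF1R summed to between 1.39 and 2.85 CPM in the unstimulated spheres, with PTPRC at 0 in MI Ctrl and LST1 at 0 in MII Ctrl. The fibroblast markers were lower in MII-spheres, at 8.99 to 10.9 (1 of 7 at 1 CPM or more) against 20.8 to 23.0 CPM (4 of 7) without and 4.26 to 5.41 against 38.6 to 41.1 CPM with TGFβ. Their part in the results was not tested.

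SLUG KO cells were compared with WT cells to ask what differs after CRISPR/Cas9 targeting of SNAI2. Of 5 members tested, 3 were called lower and none higher by edgeR, where 3.33% of 17428 genes were called, 1.45% higher and 1.89% lower. The same members were called without WT replicate 2, where 31.2% of 17909 genes were called, 16.8% higher and 14.4% lower. DESeq2 called none higher and 4 lower, the fourth being THBS2, which was too low for the filter used with edgeR and was also called lower when edgeR had no such filter, and 1 member was higher at an unadjusted p under 0.05.

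FN1 was at 83.3, 82.7 and 96.9 CPM in SLUG KO and at 717, 974 and 628 CPM in WT cells. The groups did not overlap, and the log2 fold-change was -3.17 ± 0.23 (SE), or -2.95 ± 0.10 without WT replicate 2. It was called lower under each of the 12 alternatives tried. TGFBI was at 48.8, 47.2 and 49.2 CPM against 101.2, 113.3 and 103.7 in WT cells. Its log2 fold-change was -1.16 ± 0.15, or -1.09 ± 0.085 without WT replicate 2, and the call was lost without WT replicate 1 or any single SLUG KO library (log2 fold-changes from -1.16 to -1.13). TNC was at 54.2, 52.4 and 54.3 CPM against 102.4, 179.4 and 98.8, so WT replicate 2 stood above the other WT libraries. Its log2 fold-change was -1.27 ± 0.26, and -0.92 ± 0.086 without WT replicate 2. Its call was lost when any other library of either group was left out (log2 fold-changes from -1.41 to -1.23).

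THBS1, the most abundant member in both groups, had 1689, 1823 and 1753 CPM in SLUG KO and 1972, 2909 and 1998 in WT cells. It was not called, with a log2 fold-change of -0.41 ± 0.21 (95% interval -0.83 to 0.0027), or -0.19 ± 0.097 without WT replicate 2. SPARC was not called at 26, 23 and 19 counts against 16, 14 and 14 (log2 fold-change 0.72 ± 0.29, or 0.74 ± 0.40 without WT replicate 2). THBS2 had no count in SLUG KO and 2, 21 and 10 counts in WT cells, which is at least 10.6-fold lower against 3 counts over the group, or at least 5.69-fold without WT replicate 2, and it did not pass the low-count filter. MGP had 2 counts in SLUG KO and 6 in WT cells (ratio 2.89, 95% exact counting interval 0.516 to 29.3, or 2.85, 0.408 to 31.5, without WT replicate 2), SPP1 had 9 and 3 (ratio 3.12, interval 0.778 to 17.9), and POSTN had 1 and 0. The summed epithelial markers were at 23.1 to 24.6 CPM in SLUG KO and 12.9 to 24.3 in WT cells (3 of 9 at 1 CPM or more in both, with KRT5 and DSG3 at 0), and the fibroblast markers at 61.2 to 68.2 and 50.5 to 104.07 CPM (5 and 3 of 7, with DCN at 0 in WT cells). Their part in the results was not tested.

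Between siSMAD and Csi cells, which differ in SMAD2, SMAD3 and SMAD4 and were grown without added TGFβ, 5 of 8 members tested were called higher and none lower by edgeR, where 36.0% of 17696 genes were called, 16.3% higher and 19.7% lower. None was lower with DESeq2 either, and 1 was lower at an unadjusted p under 0.05. MGP passed the low-count filter through its siSMAD libraries, so nothing is read from the count of calls. MGP had the largest difference, from 6, 8 and 12 counts in Csi to 39, 39 and 36 in siSMAD cells, or 0.246 ± 0.069 to 1.11 ± 0.030 CPM (SD, n = 3). Its log2 fold-change was 2.14 ± 0.37 (SE). SPP1 rose from 3.618, 3.504 and 3.308 to 5.94, 5.51 and 5.82 CPM (0.72 ± 0.13). THBS1 rose from 916, 947 and 930 to 1242, 1261 and 1226 CPM (0.41 ± 0.036). FN1 rose from 2544, 2384 and 2330 to 3049, 2887 and 2741 CPM (0.25 ± 0.041).

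TNC was at 106.2, 105.7 and 104.7 CPM in Csi and 122.1, 117.4 and 111.5 in siSMAD cells (log2 fold-change 0.14 ± 0.043), and lost its call without siSMAD replicate 1 (0.12). TGFBI was not called, and its libraries overlapped at 287, 281 and 266 against 295, 280 and 274 CPM (0.02 ± 0.041, 95% interval -0.06 to 0.10, and -0.01 with flow cell as a term). SPARC (-0.32 ± 0.15) and THBS2 (-0.22 ± 0.13) were not called, and POSTN had 1 count in the 6 libraries. The summed fibroblast markers were at 95.4 to 98.4 CPM in Csi and 119.1 to 124.3 in siSMAD cells (4 of 7 at 1 CPM or more in both, with DCN at 0 in Csi cells), and their part in the results was not tested.

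By the headers of the count tables, siSMAD replicates 1 and 2 came from another flow cell than siSMAD replicate 3 and the Csi libraries. Within the shared flow cell, siSMAD replicate 3 stood at log2 ratios to the mean of the 3 Csi libraries of 2.18 for MGP, 0.74 for SPP1, 0.40 for THBS1, 0.18 for FN1 and 0.08 for TNC, with no test for 1 library. A flow-cell term leaves siSMAD replicate 3 as the only library behind the difference, so the fitted log2 fold-changes of 2.16, 0.75, 0.40, 0.19 and 0.09 for MGP, SPP1, THBS1, FN1 and TNC repeat these ratios and are no further check.

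PMEPA1, SMAD7 and SKIL, 3 genes outside the members, show how TGFβ targets behaved in the same libraries. PMEPA1, a feedback inhibitor, rose with TGFβ by 1.44 ± 0.052 in MI- and 0.24 ± 0.035 in MII-spheres on the log2 scale. SMAD7, an inhibitory SMAD, was not called in either line (0.11 ± 0.096 and -0.14 ± 0.12). SKIL, a co-repressor, rose in MI-spheres (0.60 ± 0.057) and was not called in MII-spheres (0.08 ± 0.039). In siSMAD cells SKIL, SMAD7 and PMEPA1 were called higher (log2 fold-changes 0.68, 0.25 and 0.11). The difference in flow cell applies to them too. With flow cell as a term, which rests on siSMAD replicate 3 alone, the log2 fold-changes were 0.75, 0.17 and 0.11.

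A total of 3 lists gave the surroundings of the members: 33 other matricellular genes, 17 receptors and 13 enzymes that modify these proteins. Of the other matricellular genes, 20 were tested in MI-spheres, with 5 called higher and 5 lower with TGFβ (median log2 fold-change -0.112 against -0.0165 over all genes). In MII-spheres 18 were tested, with 6 higher and 8 lower (median -0.0706 against -0.0179). Over all genes tested, 28.7% were called higher and 27.4% lower in MI-spheres, and 29.9% and 27.6% in MII-spheres. LGALS1, which encodes galectin-1, rose in both lines (2.31 ± 0.057 and 0.62 ± 0.040; adjusted p = 4.29e-18 and 4.08e-19, quasi-likelihood test of edgeR, Benjamini-Hochberg method). CCN1, an integrin-binding protein of the CCN family, fell in both (-1.51 ± 0.13 and -1.56 ± 0.12). The median over the members tested was 2.16 in MI- and 0.83 in MII-spheres, but the members were chosen with these values known.

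Among the receptors, 11 of 13 tested were called higher and 2 lower with TGFβ in MI-spheres (median log2 fold-change 0.615), and 10 were higher and 2 lower in MII-spheres (median 0.28). Of all genes tested, 28.7% were higher and 27.4% lower in MI-spheres, and 29.9% and 27.6% in MII-spheres. CD36, a thrombospondin receptor, rose from 32.9 ± 2.59 to 293 ± 21.7 CPM (SD, n = 3) in MI-spheres, and ITGB6, a subunit of an integrin that binds fibronectin and latent TGFβ, rose from 301 ± 7.70 to 781 ± 64.2 CPM. In MII-spheres ITGAV, the partner of ITGB6, rose by 0.65 ± 0.035 and ITGB3 fell (log2 fold-change -0.998 ± 0.048). Of the 13 enzymes, 8 were higher and 2 lower in MI- and 7 higher and 2 lower in MII-spheres (medians 0.311 and 0.197). LOXL2, a lysyl oxidase, rose in both lines (1.99 ± 0.12 and 1.51 ± 0.21).

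Between unstimulated MII- and MI-spheres, 12 of the 19 other matricellular genes tested were called higher and 2 lower in MII-spheres (median log2 fold-change 0.258 against 0.0169 over all genes). Of all genes tested, 31.7% were called higher and 32.5% lower. CCN5 was at 63.7 ± 5.95 CPM in MII Ctrl against 3.95 ± 0.059 in MI Ctrl, and FSTL1, a follistatin-like SPARC relative, was lower, at 3.86 ± 0.84 against 28.8 ± 2.62 CPM. Of 14 receptors, 5 were higher and 7 lower (median -0.08), and of 13 enzymes 4 were higher and 6 lower (median -0.04). The integrin subunit ITGB3 was at 124 ± 1.31 CPM in MII Ctrl and 2.00 ± 0.17 in MI Ctrl, and TGM2, a transglutaminase that crosslinks fibronectin, was at 110.6 ± 4.95 and 0.255 ± 0.19 CPM. With TGFβ, 10 of 19 other matricellular genes were higher and 5 lower (median 0.28 against 0.00435 over all genes), where 31.1% of all genes tested were higher and 31.6% lower. Of 13 receptors then tested, 6 were higher and 6 lower (median -0.06), and of the enzymes 2 were higher and 8 lower (median -0.255).

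In SLUG KO cells, 2 of 19 other matricellular genes were called lower, CCN2 (log2 fold-change -0.99 ± 0.18) and SPOCK3, which had no count in SLUG KO and 135 in WT cells (medians 0.23 over the list and -0.0519 over all genes). Of all genes tested, 1.45% were called higher and 1.89% lower. Of 13 receptors, 1 was called higher, the syndecan SDC4 (0.95 ± 0.17; median 0.22), and none of 13 enzymes was called by edgeR (median 0.0411), with 2 at an unadjusted p under 0.05 and 1 called by DESeq2. None of these 3 calls held without WT replicate 1 or any single SLUG KO library, and those of CCN2 and SPOCK3 were also lost without WT replicate 3. Without WT replicate 2 the log2 fold-changes of CCN2 and SDC4 were -0.86 and 0.89, and the counts were 8 higher and 3 lower of 19 other matricellular genes, 7 and 2 of 14 receptors, and 5 and 1 of 13 enzymes. There, 16.8% of all genes tested were called higher and 14.4% lower. In siSMAD cells 5 of 22 other matricellular genes were higher and 6 lower (median 0.10), and 3 of 13 receptors were higher and 5 lower (median -0.06). Of all genes tested there, 16.3% were called higher and 19.7% lower. Of the 13 enzymes, 8 were lower and none higher by edgeR or DESeq2, with 1 higher at an unadjusted p under 0.05 (median -0.204 against 0.00381 over all genes), with DPY19L1, a C-mannosyltransferase of thrombospondin repeats, at 60.1 ± 1.44 against 156 ± 5.74 CPM.

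For each member, the protein-coding genes with the most similar pattern were found among 13869 genes, as the smallest root mean square difference over the 8 group means of log2 CPM, centred on each gene's own mean. TGFBI was closest to DSP (0.257, against a spread of 1.16 for TGFBI itself), which encodes the desmosomal protein desmoplakin, and to VAT1L (0.399). SPARC was closest to the endothelial lipase gene LIPG (0.336, spread 1.05) and MARVELD1 (0.375), POSTN to RIC3 (0.313, spread 1.04) and FIBIN (0.325), and TNC to the collagen lysyl hydroxylase gene PLOD1 (0.528, spread 1.03) and PLCH1 (0.565). The genes nearest to MGP in pattern were expressed at lower levels than MGP. CDH19, a cadherin, and KLK5, a kallikrein protease, came first with differences of 1.18 and 1.24 against a spread of 5.10, at 274 and 259 CPM in MII Ctrl and at most 0.262 CPM on average in all groups but those of MII-spheres. FN1 was closest to MT-ND6 (0.563, spread 2.03) and PCSK1N (0.614), THBS1 to ZNF100 (0.620, spread 2.26) and ZNF606 (0.641), THBS2 to INSYN1 (0.163, spread 1.41) and KEL (0.196), and SPP1 to ESPN (0.389, spread 1.34) and PLXNB3 (0.445). Some of the named genes were near 0 CPM in some groups, such as PCSK1N in the sphere groups (at most 0.088 CPM) and ZNF100 in MI-spheres (at most 0.041 CPM). POSTN and THBS2 themselves were under 0.5 CPM on average in most groups. There the pattern was set largely by the pseudocount of 0.5 CPM. Over 8 groups, of which pairs share a line, such likeness is a description of these groups.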

How the data were processed

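RNA-seq counts of 24 libraries in 8 groups of 3 were analysed. A further 16 samples, of ATAC-seq, are not part of the results. After trimming (Trimmomatic) and alignment (STAR), the authors deposited raw fragment counts per gene, without normalization, made with featureCounts (Subread 2.0.0) on the exons of GENCODE release 38 with a mapping quality of at least 30. Per the file headers, strand was ignored, although the library kit keeps it. Versions of STAR and Trimmomatic are not given in the sources used here. Per the labels, ribosomal RNA had been depleted, and 60463 of 60708 genes (99.6%) were matched to a symbol.

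Every comparison used only the libraries of its groups, in edgeR 4.0.16 in R 4.3.3 (filterByExpr, TMM, quasi-likelihood test, Benjamini-Hochberg adjustment over all genes tested). Each SE of a log2 fold-change was calculated back from the test, as its absolute value over the square root of the F statistic. The 95% intervals of log2 fold-changes apply a normal quantile to this SE, so with few libraries they are approximate and may be too narrow. CPM used TMM factors over the 24 libraries. TPM were computed from counts and the tables' exon lengths. Group totals of 0 were set against 3 counts over the group, and ratios against 1 to 3 counts have exact Clopper-Pearson intervals. These intervals cover counting error only. The ratios and WT levels without WT replicate 2 were added after seeing the data. Alternatives were DESeq2 1.42.0, other scalings and filters, a replicate block, flow cell as a term, 1 fit of the 12 sphere libraries and leaving out each library. The scripts were tested on simulated data. Tables and plots used pandas 2.3.3 and matplotlib 3.10.9.

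The members, lists and comparisons were chosen with earlier results of these data known. Named beside the members are the targeted genes, 3 TGFβ reference genes (another one is not reported here) and, per comparison and list, up to 2 called genes in each direction, by smallest adjusted p, of which some are left out of the text. For each member the 2 protein-coding genes (at least 1 CPM in a group, pseudocount 0.5) most like it are named.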

Additional observations from a re-analysis of the deposited data

Results flagged for a closer look

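Among the genes whose response to TGFβ differed between both sphere lines, given here are the members and up to 2 genes per list and direction with the smallest adjusted p, 18 in all, by the interaction term in edgeR (quasi-likelihood test, Benjamini-Hochberg method across 18591 genes). The values are log2 differences, response in MII- minus response in MI-spheres. Among the members these were -2.06 for FN1, 0.68 for TNC, -2.20 for SPARC, -1.11 for THBS1, -0.55 for TGFBI and -2.17 for MGP, which describe genes chosen with these results known. The value of SPARC rests on few counts in MII-spheres and that of MGP on few counts in MI-spheres. Among the other matricellular genes they were 0.69 for LGALS3, 1.00 for EFEMP1, -1.67 for LGALS1 and -1.20 for MFGE8. Among the receptors they were 0.46 for SDC4, 0.39 for ITGB8, -2.48 for CD36 and -1.10 for ITGB6. Among the modifying enzymes they were 0.86 for FAM20C, 0.28 for VKORC1L1, -2.62 for TGM2 and -0.49 for B3GLCT. TGM2 was at only 0.255 CPM in MI Ctrl and 1.59 CPM in MI TGFβ. VKORC1L1 lost its call in 8 of 18 alternatives, among them leaving out any single MI Ctrl library, MI TGFβ replicate 2, MII Ctrl replicate 1, MII TGFβ replicate 2 or MII TGFβ replicate 3 (0.20 to 0.26). Dixon's test for a single far value was not applied to groups of 3 libraries.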

How the results depend on the processing

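Of 659 alternative values for 48 results of single members, 630 kept direction and side of the threshold, 19 lost and 6 gained a call, and 4 changed sign. The sign changes were those of FN1 with TGFβ in MII-spheres (-0.038 with scaling to total counts) and of TGFBI in siSMAD cells (-0.013 with flow cell as a term, which rests on 1 siSMAD library, and -0.010 to 0.056 when 1 library was left out, below 0 without Csi replicate 3 or siSMAD replicate 1), all of values that were not called. The cause was not tested. In SLUG KO cells the number of members called was 1 to 3 when 1 library was left out, that of other matricellular genes 0 to 11, of receptors 0 to 9, of modifying enzymes 0 to 6 and of all genes 133 to 5592 against 581 with all libraries, with each upper end coming from leaving out WT replicate 2. DESeq2 called 4 other matricellular genes, 1 enzyme and 1204 genes in all, and the fit with no low-count filter 4 other matricellular genes and 973 genes in all. For the interaction, 5 rather than 8 enzymes were called with no low-count filter, and 5 to 8 when 1 library was left out, the lowest without MII Ctrl replicate 3. Replicate numbers did not pair the samples, since deviations of same-numbered libraries correlated at -0.12 to 0.0297. With the replicate block, 7, 5, 6, 8, 5 and 6 members were called with TGFβ in MI- and MII-spheres, between unstimulated and stimulated lines, in siSMAD cells and in the interaction, as without it. In SLUG KO cells the block left 1 member (FN1; TNC at -1.21 and TGFBI at -1.16 were not called), 1 other matricellular gene, no receptor (0) and 255 genes in all. Of 144 alternative group levels of members, 26 moved by more than 1 SD, by 15.3% at most. With 3 libraries a group, members under 1 CPM were limited by counting error.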
